A study of Mus musculus with 8 samples.

Results

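Cytosolic ribosomal protein genes encode the protein components of the large and small subunits of the ribosome outside mitochondria. On the arrays described here they were taken as the non-control probes whose gene name in the scanner files is Rpl, Rps or Rplp followed by a number and, where present, the letter a or x. That rule gave 163 probes of 75 genes among 55681 non-control probes, with 99 probes of 43 large-subunit genes, 59 probes of 29 small-subunit genes and 5 probes of the 3 stalk genes Rplp0, Rplp1 and Rplp2. In all, 22 genes had 1 probe and 53 had 2 or more. The values came from 8 one-colour arrays of C57BL/6 mouse embryos at stage E10.5, in which spinal neural tube and paraxial tissue (the tissue beside the neural tube) were cut out by laser capture. The 2 wild-type embryos are labelled "wild type", and the 2 mutant embryos, with a conditional loss of Geminin, are labelled "fl/fl; cre/o". Geminin restrains DNA replication licensing and acts in cell fate control. The cre driver and the deleted stretch of the gene are not given in the labels, and those of the wild-type embryos mention no floxed allele or cre. Each embryo gave 1 array of each tissue, so every group of genotype and tissue has 2 arrays, and a comparison of genotypes rests on 2 embryos against 2.

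Most ribosomal proteins are needed in equal numbers for assembly with ribosomal RNA, which takes place largely in the nucleolus. Dividing cells spend a large share of their RNA and protein synthesis on ribosomal proteins. Their mRNAs typically begin with a run of pyrimidines, the 5' terminal oligopyrimidine or TOP motif, through which the mTOR pathway controls their translation together. Rpl5 and Rpl11 are also known as the ribosomal proteins that bind Mdm2 and so link faulty ribosome assembly to p53, Rps19 is a gene of Diamond-Blackfan anaemia, Rpl38 and Rpl24 have known mouse mutants with skeletal and tail defects, and Rps6 is the substrate of S6 kinase.

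Runs of pyrimidines were more frequent at the starts of these genes than at those of all genes, though not present at every start. RefSeq (build GRCm38.p6) held 64 start sites for 54 of the 75 genes. The 30 bases from 20 before the start base through the first 10 bases transcribed held an unbroken run of 7 or more C or T, on the given strand, in 32 of the 64 entries, or 50%, against 19.2% of the 32851 start sites of all genes. The letters CTCTTT on the given strand of the same window were present in 12.5% against 1.21%, and CTTTCC in 14.1% against 1.5%; both can lie inside the C/T run. The run can lie upstream of the listed start base and need not be a TOP motif. In the whole 300 bases, from 250 before the start, CCGGAAG on either strand was present in 35.9% against 8.86%, and TATAAA in 9.38% against 13.6%. These are matches of letters and not measured binding. A few windows are shown with their longest C/T run in capitals, first those with long runs and then 4 with short ones, to show how far the start sites differ among members.
Rpl7a, chr2:26910787-26910816, plus strand: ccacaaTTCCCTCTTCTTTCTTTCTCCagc
Rpl35, chr2:39005122-39005151, minus strand: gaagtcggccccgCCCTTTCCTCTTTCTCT
Rpl28, chr7:4792945-4792974, plus strand: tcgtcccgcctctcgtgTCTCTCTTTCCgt
Rps18, chr17:33955656-33955685, minus strand: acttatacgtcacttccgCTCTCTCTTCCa
Rpl38, chr11:114668560-114668589, plus strand: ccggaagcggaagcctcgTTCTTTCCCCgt
Rps6, chr4:86857358-86857387, minus strand: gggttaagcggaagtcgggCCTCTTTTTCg
Rplp2, chr7:141447631-141447660, plus strand: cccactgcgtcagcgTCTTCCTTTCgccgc
Rplp0, chr5:115559447-115559476, plus strand: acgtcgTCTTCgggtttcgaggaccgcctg
Rpl11, chr4:136053384-136053413, minus strand: gCCTCCTgacccataaggccacggggccgg
Rpl24, chr16:55966255-55966284, plus strand: taggaagaaagCTgttgctaggaaacagac
Rpl10, chrX:74270796-74270825, plus strand: CTatggttgttacagtggaagataggccgc

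The arrays and the labels were checked first. Each array's log2 signal was scaled to a common 75th percentile, and a probe was kept where it passed the scanner's test of being well above background in both arrays of some group, which left 42752. The share of probes passing that test differed with genotype. It was 77.6% and 77.9% in wild-type neural tube (embryos 1 and 2) and 73.5% and 74.0% in mutant neural tube. In paraxial tissue it was 77.4% and 73.5% in wild type and 71.5% and 73.1% in the mutants. The lowest share lay on the paraxial array of mutant embryo 1, where the members described below stood highest. The part of this share in the members' values was not tested. No spot was saturated, and the number of arrays limits the precision. The Gmnn probe, which need not lie in the deleted part, read 12.35 and 12.24 in wild-type neural tube (embryos 1 and 2), 12.10 and 11.80 in mutant neural tube, 12.20 and 11.88 in wild-type paraxial tissue and 11.42 and 11.39 in mutant paraxial tissue. It was lower in the mutants by 0.35 (SE 0.25) and 0.63 (SE 0.25) on the log2 scale, with limma adjusted p of 0.918 and 0.994. The tissue labels were borne out by markers: all 13 probes of spinal neural tube genes were called higher in neural tube averaged over genotypes (median difference 2.23), and 14 of 16 probes of paraxial mesoderm genes were called lower (median -3.04). Replicate arrays are separate embryos by their labels, and the arrays are of bulk tissue, so fewer cells of a type and less RNA per cell cannot be told apart.

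All 163 member probes were kept, and 162 were well above background on all 8 arrays; the exception was one of 3 Rpl39 probes, whose mean log2 level was 7.01. The members were among the brightest probes: their median level was 15.46 against 10.68 for all kept probes, 152 lay above the 75th percentile and 88 above the 95th, and 7 lay below the median. Brightness reflects the probe as well as the mRNA, so levels are used here only to match probes. The brightest members were probes of Rpl18 (17.57), Rps16 (17.46) and Rps26 (17.35), and the dimmest were those of Rpl39 (7.01), Rps15a (8.50) and Rpl21 (8.51). Because differences between arrays varied with brightness among other probes too, each member was set beside other probes within 0.25 log2 units of its own mean level, of which there were at least 166 and at the median 756.

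Across arrays the members moved together, and mutant embryo 1 stood highest. The median member level was 15.24 and 15.30 in wild-type neural tube (embryos 1 and 2), 15.74 and 15.36 in mutant neural tube, 15.13 and 15.55 in wild-type paraxial tissue, and 15.87 and 15.56 in mutant paraxial tissue. The paraxial array of mutant embryo 1 held the highest of the 8 values for 112 members and its neural tube array for 30 more. The lowest value lay on the paraxial array of wild-type embryo 1 for 75 members and on the neural tube array of wild-type embryo 2 for 61. Averaged over tissues, mutant embryo 1 was the highest embryo for 143 of the 163 members, whereas mutant embryo 2 was the highest for 6. Other probes of equal brightness moved the same way, with smaller shifts on 7 of the 8 arrays; on the paraxial array of wild-type embryo 2 both were near 0 (0.02 for members, 0.03 for the others). On the arrays of mutant embryo 1, members stood 0.30 (neural tube) and 0.41 (paraxial) above their own 8-array means, against 0.20 and 0.26 for the other probes. On those of mutant embryo 2 the values were -0.11 and 0.10, against -0.04 and 0.08.

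**Figure D1:**
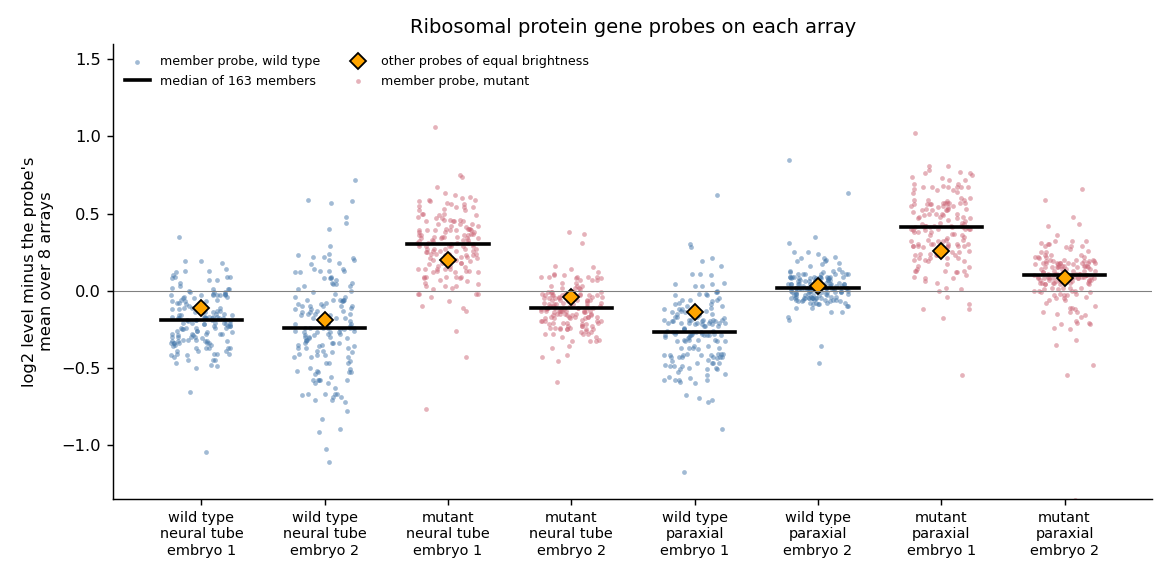
Each point is 1 of the 163 member probes, plotted as its log2 level minus its own mean over the 8 arrays; black lines are the members' medians and orange diamonds the medians of other probes of equal brightness. Both arrays of mutant embryo 1 sit highest, with medians of 0.30 and 0.41, and those of mutant embryo 2 lie at -0.11 and 0.10.

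In the neural tube, 150 of 163 member probes had a higher mean in the mutants than in wild type, and 13 a lower one. The median log2 difference was 0.31, with quartiles of 0.16 and 0.43, against -0.01 for all kept probes and 0.21 for other probes of equal brightness. Members exceeded those other probes by a median of 0.11, and 117 of 163 lay above them. No member was called by limma after Benjamini-Hochberg adjustment over 42752 probes, as no probe was (0%); at an unadjusted p under 0.05 there was 1 member against 3.69% of all probes. For 71 members, or 43.6%, both mutant arrays lay above both wild-type arrays, against 16.8% of all probes and on average 30.9% of other probes of equal brightness; 3 members (1.84%) lay below, against 15.6% of all probes and on average 5.44% of those of equal brightness. The typical standard error of a member's difference, 0.30, was as large as the median difference itself.

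The same was seen in paraxial tissue of the same embryos. There 151 members had a higher mean in the mutants, with a median log2 difference of 0.36 (quartiles 0.22 and 0.53) against 0.01 for all probes and 0.24 for other probes of equal brightness. The median excess over those other probes was 0.15, with 127 of 163 above them. Again limma called no member and no probe (0%), and 4 members were under an unadjusted p of 0.05 against 3.50% of all probes. Groups did not overlap, with the mutants higher, for 108 members or 66.3%, against 21.0% of all probes and on average 45% of other probes of equal brightness; 5 (3.07%) lay lower, against 15.9% and 5.58%. In both tissues at once, 59 members had non-overlapping higher mutant values (36.2%, and on average 21.4% of other probes of equal brightness), and since both tissues came from the same embryos these are not independent counts. The difference between the mutant effects of the 2 tissues had a median of -0.07 (58 members higher in neural tube, 105 in paraxial tissue), and no member and no probe (0%) was called for it by limma; at an unadjusted p under 0.05 there was 1 member, a dim Rps27a probe at -0.69, against 5.04% of all probes. The direction of that median rested on single arrays: it was 0.08 without wild-type embryo 1 (103 members higher) or without its paraxial array alone (101 higher), 0.03 without its neural tube array (91 higher) and 0.06 without the neural tube array of mutant embryo 2 (95 higher). With the replicate number (slide row) as a block, the members under an unadjusted p of 0.05 were 3 in paraxial tissue and 0 for the difference between tissues.

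The size of the difference rested on individual embryos. Without mutant embryo 1, the neural tube median was 0.10, with 123 members higher and an excess over other probes of 0.03, and the paraxial median was 0.22, with 137 higher and an excess of 0.08. Without mutant embryo 2 the medians were 0.50 and 0.51. Leaving out only the neural tube array of mutant embryo 1 gave 0.19, and leaving out that of wild-type embryo 2 gave 0.16; without the paraxial array of wild-type embryo 1 the paraxial median was 0.22, and without that of wild-type embryo 2 it was 0.54. The median also depended on how arrays were scaled. Quantile scaling, which gives all arrays the same distribution, lowered it to 0.13 in neural tube (119 members higher) and 0.15 in paraxial tissue (128 higher), and cyclic loess to 0.11 (111 higher) and 0.16 (125 higher). The excess over other probes of equal brightness was 0.11 to 0.12 in neural tube and 0.15 to 0.16 in paraxial tissue under every processing alternative tried. With arrays or embryos left out it spanned 0.03 to 0.16 and 0.08 to 0.23. Without wild-type embryo 1 it was 0.04 in neural tube (134 members higher). The SD between replicates of members minus other probes was 0.09.

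**Figure D2:**
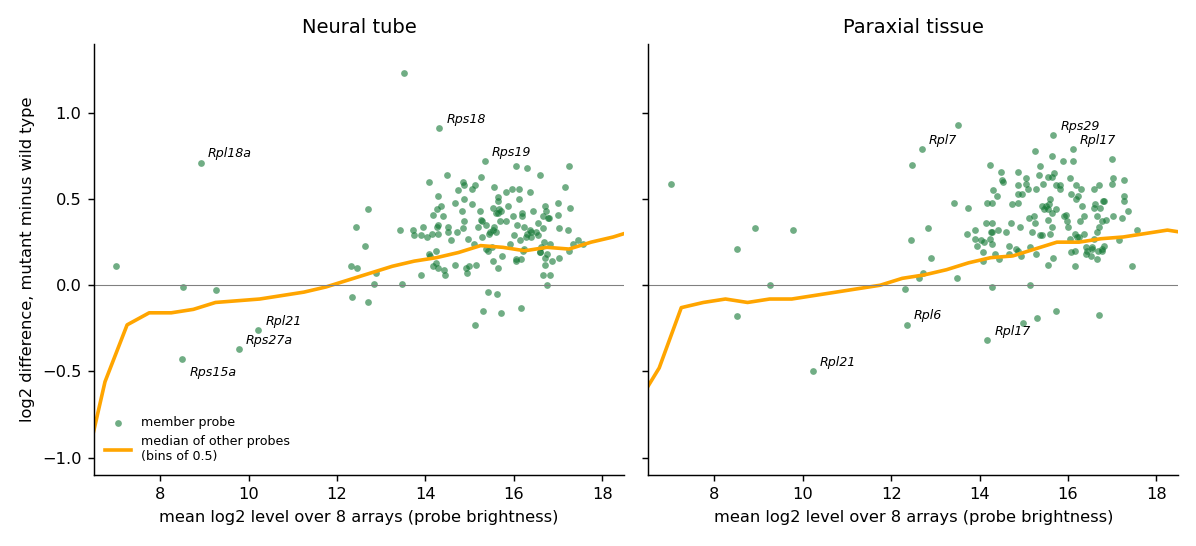
Each green point is a member probe, with its mean log2 level over 8 arrays on the horizontal axis and its mutant minus wild-type log2 difference on the vertical axis, in neural tube (left) and paraxial tissue (right). The orange line is the median difference of other probes in brightness bins of 0.5, and a few genes among the highest and lowest differences are named; 117 and 127 of the 163 members lay above other probes of their own brightness.

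Cell type markers moved with genotype as well. All 17 probes of surface ectoderm and epithelium genes had higher means in mutant paraxial tissue (median 1.74) and 16 of 17 in mutant neural tube (median 0.85). Their mean deviation per array was -0.95 and 0.13 in wild-type paraxial tissue and 1.29 and 0.93 in the mutants, and -0.40 or lower on both wild-type neural tube arrays and 0.09 and -0.08 in the mutants. Neuron genes had lower means for 11 of 12 probes in mutant paraxial tissue (median -1.23) and for 10 of 12 in mutant neural tube (median -0.78). Their array means were 0.79 and -0.98 in wild-type and -1.56 and -1.32 in mutant paraxial tissue, and 1.24 and 1.09 in wild-type and -0.33 and 1.07 in mutant neural tube, where mutant embryo 1 alone was low. Endothelial genes had higher means in mutant paraxial tissue for all 11 probes (median 0.61), and lower ones in mutant neural tube for 8 of 11 (median -0.09). In mutant paraxial tissue 12 of 16 paraxial mesoderm probes had lower means (median -0.95) and 12 of 14 erythroid probes higher ones (median 0.66). In mutant neural tube the medians of these 2 lists were 0.11 and 0.16. Of 13 spinal neural tube probes, 10 had higher means in mutant neural tube (median 0.32) and 9 lower ones in mutant paraxial tissue (median -0.18). The 7 macrophage probes had medians of -0.45 in mutant neural tube and 0.02 in mutant paraxial tissue. No probe of these lists was called between genotypes, every kept probe was well above background on at least 1 array, and the part of these cell types in the ribosomal protein values was not tested.

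By subunit, medians were close. Large-subunit probes had medians of 0.32 in neural tube (94 of 99 higher in the mutants) and 0.36 in paraxial tissue (92 of 99), and small-subunit probes 0.28 (53 of 59) and 0.39 (55 of 59). The 5 stalk probes had medians of 0.18 and 0.37. The stalk is the flexible arm of the large subunit that recruits translation factors. Among stalk genes, Rplp1 read 15.24 and 15.58 in wild-type and 16.13 and 15.42 in mutant neural tube, and 15.16 and 15.70 in wild-type and 16.49 and 15.68 in mutant paraxial tissue. In both tissues its groups overlapped, and mutant embryo 1 alone was high. The differences were 0.37 (SE 0.35) and 0.65 (SE 0.35). The 3 probes of Rplp0, the stalk's base, gave -0.23, -0.04 and 0.18 in neural tube. In the same order they gave 0.00, 0.29 and 0.37 in paraxial tissue.

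Among small-subunit genes, Rps19, needed for maturation of the small subunit's RNA, read 14.99 and 14.76 in wild-type neural tube and 15.96 and 15.22 in the mutants. That is 0.72 higher on the log2 scale (SE 0.36, adjusted p 0.918 by limma). Its paraxial values were 14.89 and 15.36 in wild type and 16.01 and 15.52 in the mutants, 0.64 higher (SE 0.36, adjusted p 0.994). Both mutant arrays lay above both wild-type arrays in each tissue, with mutant embryo 1 the higher. Rps18 had a neural tube difference of 0.91 (SE 0.49), from 14.11 and 13.20 in wild type and 15.05 and 14.06 in the mutants, so that its groups overlapped. Rps7, which like Rpl5 and Rpl11 can bind Mdm2, gave 0.56 (SE 0.37) in neural tube and 0.41 (SE 0.37) in paraxial tissue. The brightest probe of Rps6 gave 0.57 (SE 0.33) and 0.26 (SE 0.33), and that of Rps20 0.20 and 0.28.

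In paraxial tissue the small-subunit gene Rps29 was near the top with 2 of its 3 probes at an unadjusted p under 0.05. Its brighter probe read 14.98 and 15.70 in wild type and 16.33 and 16.09 in the mutants, a difference of 0.87 (SE 0.30, adjusted p 0.994), and a dimmer one gave 0.61. An Rps27 probe gave 0.72, from 15.41 and 15.86 in wild type and 16.40 and 16.30 in the mutants. The groups of these 3 probes did not overlap. The remaining Rps29 probe gave 0.78. All 3 Rps29 probes are listed on the minus strand of chromosome 2 of build mm9, away from the chromosome of the RefSeq gene: the brighter at 172335075-172335134, the dimmer at 172335003-172335062 and the remaining one at 172335021-172335079. The last position overlaps both others, though none of the 3 probes shares a run of 30 bases with another of them. The dimmer and the remaining probe each share such a run with 1 probe of another name, and the brighter with none.

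Large-subunit genes with a known second role followed. Rpl5 read 14.84 and 14.23 in wild-type and 15.28 and 14.64 in mutant neural tube, and 14.77 and 14.85 in wild-type and 15.30 and 14.73 in mutant paraxial tissue. Those groups overlapped in both tissues, with differences of 0.43 (SE 0.36) and 0.21 (SE 0.36). The 3 probes of Rpl11 agreed closely, with 0.30, 0.34 and 0.35 in neural tube and 0.31, 0.36 and 0.46 in paraxial tissue. The brightest of them read 16.11 and 16.20 in wild-type and 16.58 and 16.33 in mutant neural tube, and 15.89 and 16.27 in wild-type and 16.56 and 16.53 in mutant paraxial tissue, with no overlap in either. Rpl38 gave 0.36 and 0.31 in neural tube and 0.22 and 0.18 in paraxial tissue over its 2 probes, and Rpl24 gave 0.28 and 0.40, then 0.37 and 0.31. Rpl22, known for a role in T cell development, gave 0.42 and 0.07 in neural tube over its 2 probes. Rpl10, on the X chromosome, gave 0.22 to 0.30 over 3 probes in neural tube and 0.24 to 0.46 in paraxial tissue. Rpl3 gave 0.35 and 0.69, and the brightest probe of Rpl10a 0.29 and 0.21.

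Few members ran the other way. In neural tube the lowest differences were those of dim probes of Rps15a (-0.43), Rps27a (-0.37) and Rpl21 (-0.26), and in paraxial tissue those of Rpl21 (-0.50), Rpl17 (-0.32) and Rpl6 (-0.23). None was called. A bright, intron-spanning probe of Rps3, which also acts in DNA repair, lay lower in both tissues: it read 15.80 and 15.89 in wild-type and 15.59 and 15.79 in mutant neural tube, and 15.76 and 15.74 in wild-type and 15.63 and 15.56 in mutant paraxial tissue. Its groups did not overlap, but its differences of -0.16 and -0.15 were smaller than their SE of 0.24, and the other Rps3 probes gave 0.06 and -0.13 in neural tube and 0.23 and 0.11 in paraxial tissue. Rps4x, on the X chromosome, had 0.14 and 0.12 at its bright probe, and Rpl13a 0.15 and 0.20.

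Probes of the same gene did not always agree. Of the 53 genes with several probes, all probes were higher in the mutants for 44 in neural tube and 43 in paraxial tissue, and signs differed for 8 and 10. The median range among a gene's probes was 0.25 in each tissue. Rps15a, a protein of the small subunit, spanned 0.92 in neural tube. Its dim probe A_52_P491433 read 8.36 and 9.22 in wild-type and 8.07 and 8.65 in mutant neural tube, a difference of -0.43 (SE 0.37), whereas its 2 bright probes gave 0.49 and 0.20. The dim probe is listed at chr7:125248322-125248381 of mm9 on the minus strand, away from the bright ones at chr7:125253453-125253512 and chr7:125252644-125252703.

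Rpl17, a protein of the large subunit with 7 probes, spanned 1.11 in paraxial tissue. Its brightest probe, A_55_P2011674, read 15.40 and 16.17 in wild-type and 16.86 and 16.29 in mutant paraxial tissue, a difference of 0.79 (SE 0.40). Probe A_55_P2057519 read 14.45 and 14.34 in wild type and 14.18 and 13.96 in the mutants, a difference of -0.32 (SE 0.31). Both mutant values lay above both wild-type values at the first probe and below them at the second. The other Rpl17 probes gave -0.22 to 0.44 there, and all 7 were higher in mutant neural tube, by 0.11 to 0.56. Rpl7, also of the large subunit, gave -0.01 to 0.79 over 4 probes in paraxial tissue. The highest was its dimmest probe, A_55_P2126470, which read 12.21 and 12.64 in wild type and 13.25 and 13.18 in the mutants without overlap (difference 0.79, SE 0.31). In neural tube the same 4 probes gave 0.31 to 0.44.

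**Figure D3:**
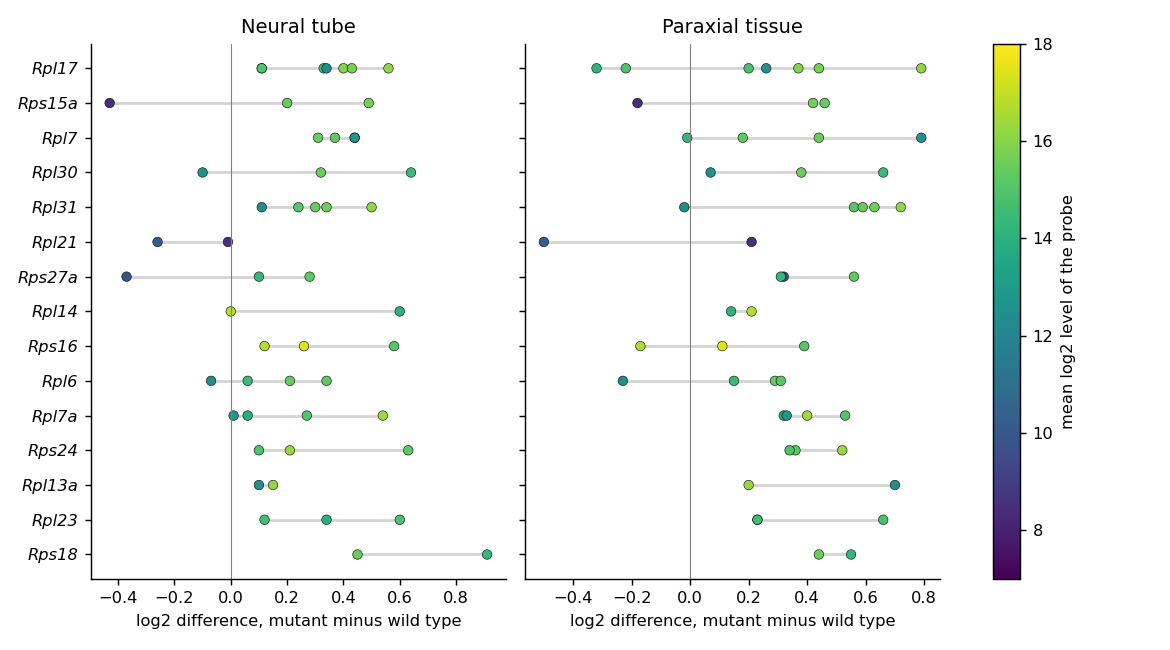
For 15 genes with wide ranges among their probes, each point is 1 probe's mutant minus wild-type log2 difference in neural tube (left) and paraxial tissue (right), coloured by the probe's mean log2 level, with a grey line over the range of the gene. Rpl17 spans 1.11 in paraxial tissue, and the lowest points are dim probes for Rps15a (-0.43), Rps27a (-0.37) and Rpl21 (-0.50 in paraxial tissue).

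Many probes have near copies. Of the 163 members, 51 shared 30 or more bases in a row with another probe of the array, 44 of them with a probe of another name, and ribosomal protein genes are known for many processed pseudogenes, so a probe can report more than its own gene. Rpl7a has probes that are near copies with scattered differences. Of the 3 set out below, A_55_P2001347 shared a run of 30 bases with 2 probes of other names, and the others with none. Its probes A_55_P2001347 and A_55_P2037922 are listed at the same place (chr2:26768759-26768818 of mm9, plus strand) yet differ by 6 substitutions, T24C, G26A, T37C, G38A, G41A and A52C, counted from the 5' base of the probe and written from the first probe to the second. Another probe, A_55_P2024080 (chr2:26768730-26768789), overlaps them. The overlapping 30 bases follow, with the 4 positions that differ in capitals.
Rpl7a A_55_P2001347, bases 1 to 30: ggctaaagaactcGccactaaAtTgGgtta
Rpl7a A_55_P2037922, bases 1 to 30: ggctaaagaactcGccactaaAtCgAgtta
Rpl7a A_55_P2024080, bases 30 to 59: ggctaaagaactcAccactaaCtTgGgtta
The mutant differences of these probes were, in that order, 0.06, 0.01 and 0.27 in neural tube and 0.32, 0.33 and 0.53 in paraxial tissue. The remaining Rpl7a probe, A_55_P2039598, has a listed span over 65 bases, taken here as spanning an intron. It gave 0.54 (SE 0.32) and 0.40 (SE 0.32), and its sequence can match spliced mRNA or a processed copy.
Rpl7a A_55_P2039598: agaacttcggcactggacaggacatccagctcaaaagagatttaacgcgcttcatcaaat

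Probes that span an intron, and so match spliced mRNA or a processed copy, had higher medians than contiguous ones. The 34 spanning probes of 30 genes had medians of 0.35 in neural tube and 0.49 in paraxial tissue, 0.17 and 0.28 above other probes of equal brightness. The 119 contiguous probes had 0.29 and 0.31, or 0.09 and 0.11 above the others. The 9 probes of 6 genes listed on another chromosome than the RefSeq gene had 0.37 and 0.58. Split by start site, the 62 probes of 31 genes with a C/T run of 7 or more had medians of 0.32 and 0.40, the 50 probes of 23 genes without one 0.29 and 0.30, and the 51 probes of 21 genes with no matched entry 0.31 and 0.38. The quartiles of the first 2 classes overlapped (0.21 to 0.46 against 0.13 to 0.41 in neural tube, 0.26 to 0.55 against 0.18 to 0.46 in paraxial tissue). None of these splits was tested.

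Other genes of ribosome production and translation moved with the members. Of 43 probes of translation factors and other RNAs known to carry the TOP motif, 41 were higher in mutant neural tube and 43 in mutant paraxial tissue. Their medians were 0.38 and 0.30, against 0.20 and 0.18 for other probes of equal brightness, with a median excess of 0.18 and 0.14. Eif4b, a helicase cofactor in initiation, gave 0.82 (SE 0.37) in neural tube, and Eef1a1, the factor that brings transfer RNA to the ribosome, 0.67 (SE 0.31) in paraxial tissue. Of 71 ribosome biogenesis probes, 67 were higher in each tissue, with medians of 0.37 and 0.34, or 0.27 and 0.24 above other probes of equal brightness. Myc, the transcription factor that drives ribosome biogenesis, had the smallest p of that list in neural tube with 1.51 (SE 0.45), followed by the nucleolar proteins Ncl at 1.04 (SE 0.36) and Ddx21 at 0.96 (SE 0.34). Of 95 probes of mitochondrial ribosomal proteins, which serve the separate ribosome of mitochondria, 84 were higher in each tissue. Their medians were 0.33 and 0.21, with a median excess of 0.20 and 0.13 over other probes of equal brightness. No probe of these lists was called by limma between genotypes (all had adjusted p of 0.918 or 0.994 among those named). On the mutant arrays the mean deviation of ribosome biogenesis probes followed the members. It was 0.45 and 0.41 on the arrays of mutant embryo 1 and -0.14 and 0.01 on those of mutant embryo 2. In wild-type neural tube it parted from them, at -0.42 and -0.04 (embryos 1 and 2) against -0.19 and -0.22 for the members. Mitochondrial ribosomal protein probes stood at -0.20 and -0.09 on those 2 arrays.

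**Figure D4:**
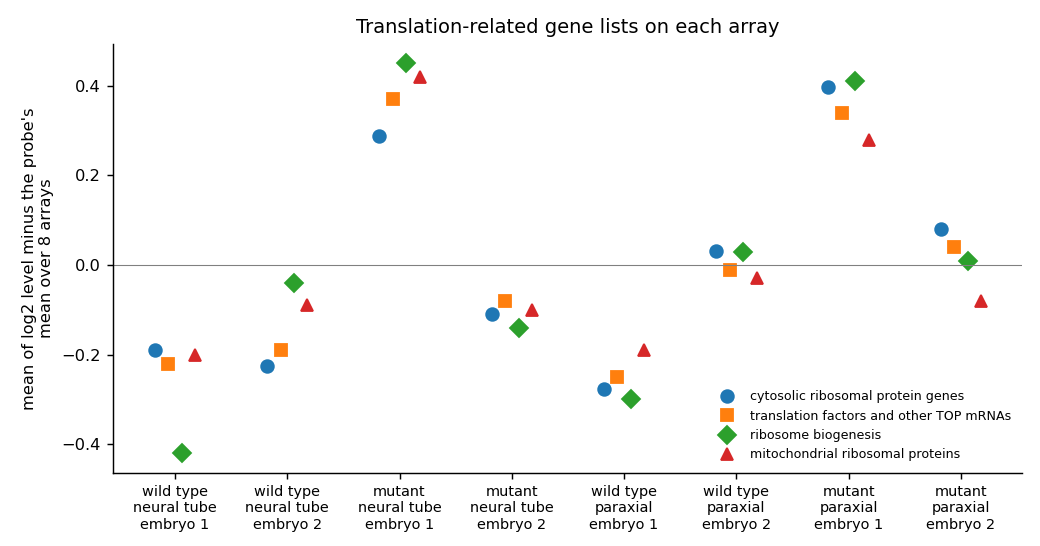
Mean over the probes of each list of the log2 level minus the probe's mean over 8 arrays, for 163 cytosolic ribosomal protein probes, 43 translation factor and other TOP RNA probes, 71 ribosome biogenesis probes and 95 mitochondrial ribosomal protein probes. For each list both arrays of mutant embryo 1 are the highest; ribosome biogenesis stands there at 0.45 and 0.41.

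Ribosomal proteins whose names fall outside the pattern and the paralogs gave similar values. The 7 probes of Rpsa, Fau and Gnb2l1 had medians of 0.27 and 0.23, all higher in the mutants. Other probes of equal brightness had 0.21 and 0.26, and the median excess over them was 0.06 and 0.10. Of 7 paralog probes, 6 were higher in each tissue, with medians of 0.33 and 0.24. For these, other probes of equal brightness had 0.19 and 0.18, and the median excess was 0.13 and 0.31. The 172 kept probes outside the pattern that the files describe as ribosomal protein had medians of 0.28 and 0.30. They were chosen by description, without leaving out the probes just given. Their median level was 14.61, and probes other than members at levels of 14.5 to 15 had medians of 0.19 and 0.17. The p53 target genes, which faulty ribosome assembly is known to raise, had 24 of 29 probes higher in mutant neural tube (median 0.29) and 28 of 29 in paraxial tissue (median 0.68), none called. Eda2r, a receptor gene induced by p53, had the smallest p in each tissue, with 1.77 (SE 0.39) and 2.65 (SE 0.39).

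Between tissues, most members were slightly lower in neural tube than in paraxial tissue. Averaged over genotypes 134 of 163 were lower, with a median of -0.13 against -0.01 for all probes and -0.09 for other probes of equal brightness. In wild type 111 were lower (median -0.09, other probes -0.06) and in the mutants 138 (median -0.17, other probes -0.10). Limma called 1 member lower, of the average and of the wild-type comparison, against 5.87% and 1.55% of all probes called lower, and none in the mutants, where 5.55% of all probes were called. Paraxial values lay above neural tube values without overlap for 19 members in wild type (17.7% of all probes) and 28 in the mutants (18.9%), shares of 11.7% and 17.2% of the members. Values of 5 and 3 members ran the other way, against 18.6% and 17.3% of all probes. The tissue medians depended on scaling and on single embryos. On average the median was -0.04 under quantile scaling (57 members higher) and cyclic loess (61 higher), and -0.04 to -0.22 with arrays or embryos left out (-0.04 without wild-type embryo 2, -0.22 without wild-type embryo 1). In wild type it was 0.00 under cyclic loess (81 higher) and turned to 0.07 without wild-type embryo 2 (121 higher), 0.08 without its paraxial array (120 higher) and 0.04 without its neural tube array (103 higher). In the mutants it was -0.05 under quantile scaling, -0.08 under cyclic loess and -0.04 without the neural tube array of mutant embryo 2 (60 higher).

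The called member was probe A_55_P2056521 of Rpl21, a large-subunit protein. It read 9.85 and 9.88 in wild-type neural tube and 10.84 and 11.06 in wild-type paraxial tissue, and 9.44 and 9.76 in mutant neural tube and 10.10 and 10.81 in mutant paraxial tissue. In each embryo the paraxial array was the higher, and the groups did not overlap in either genotype. The differences were -1.09 (SE 0.19, limma adjusted p 0.0420) in wild type, -0.86 (SE 0.19, adjusted p 0.0514) in the mutants and -0.97 (SE 0.13, adjusted p 0.00678) on average. The wild-type call held without either array of wild-type embryo 1 but was lost without any other array and without any embryo (adjusted p 0.0690 to 0.523), and with no embryo block (0.352), the embryo as a fixed term (0.126), the replicate number as a block (0.0704) or no filter (0.0907). The average call was lost with no embryo block (0.0779), without the neural tube array of mutant embryo 2 (adjusted p 0.0573), without wild-type embryo 2 (0.100) and without mutant embryo 2 (0.0716), at differences of -0.96, -0.92 and -0.87. This probe is dim for a member, with a mean level of 10.22, and is contiguous at chr5:147647577-147647636 of mm9 (plus strand). The other Rpl21 probe, at chr5:147648267-147648326 and dimmer (8.51), gave 0.06 (SE 0.12, adjusted p 0.791).

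Other extremes of the tissue comparison were not called. An Rpl12 probe, listed on chromosome 10 and away from the RefSeq gene, gave -0.46 (SE 0.17, adjusted p 0.128). At the other end, Rpl9 probe A_55_P1998825 gave 0.84 (SE 0.44, adjusted p 0.281), but 2 arrays stood apart: it read 13.30 in the paraxial tissue of wild-type embryo 1 and 13.57 in that of mutant embryo 2, and between 15.12 and 15.63 on the other 6. The second Rpl9 probe read 14.12 to 14.70 on all 8 arrays and gave 0.06. The dim probes of Rpl39 and Rpl30 followed with 0.36 and 0.31.

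**Figure D5:**
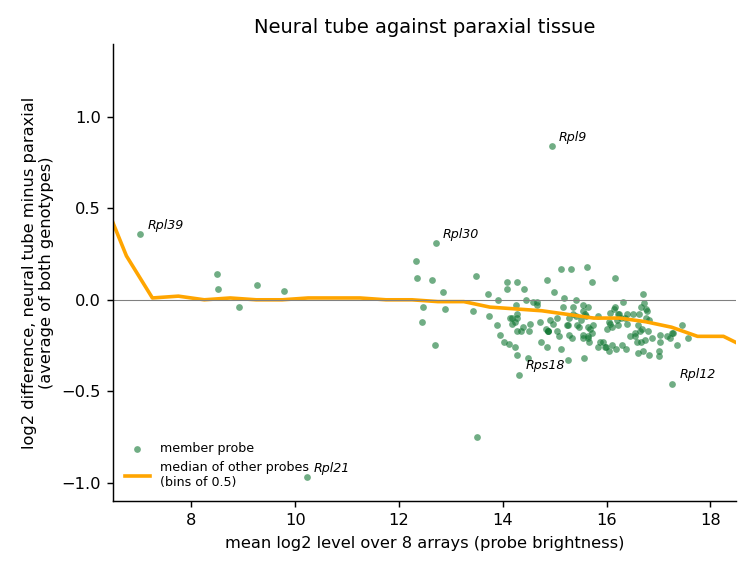
Neural tube minus paraxial log2 difference, averaged over genotypes, of each member probe against its mean log2 level; the orange line is the median of other probes in brightness bins of 0.5. Rpl21 at -0.97 is the called probe, and it and Rpl9 at 0.84 stand apart from the cloud around -0.13.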

How the data were processed

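Per the labels' protocols, RNA came from laser-captured tissue (PicoPure kit), and the cDNA carried Cy5 attached with Kreatech ULS chemistry. The deposited intensity values are linear red-channel processed signals of Agilent Feature Extraction 11.0.1.1, per the file headers (the submitters' processing notes give the same version), background-subtracted and detrended within each array and not scaled between arrays. The series-wide values the authors supplied differed from them by at most 0.497%. All arrays shared a slide, where each replicate number had its own row.

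Control spots (3671 of 62976) and spots marked as outliers were left out, spots of a probe averaged, log2 taken and each array's 75th percentile subtracted, with a common constant added back. Standard errors and p-values came from limma 3.58.1 (R 4.3.3, data.table version 1.17.8; lmFit and eBayes, Benjamini-Hochberg over 42752 kept probes at 0.05) with 4 group means, all 8 arrays and the embryo as a random block. The consensus correlation was 0.597, with 4 residual and 2.90 prior degrees of freedom. The labels give the embryo: deviations of both tissues of an embryo from their group means correlated at 0.544 (wild type) and 0.598 (mutant) over all probes, and those of wild-type and mutant embryos sharing only a replicate number (slide row) at 0.120 to 0.283. The script was tested on simulated data.

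Named were, per comparison, called members and the 3 highest and 3 lowest differences, and the 3 brightest and 3 dimmest members. Some, though not all, genes whose probes differ in sign were added. So were 20 genes with known roles and up to 3 genes of smallest p of a neighbouring list. Rps3, Rps27, Rps29 and Rpl7a probes beyond this were chosen after their values were seen. A member gene that this rule names and a gene outside the name pattern are not reported here; counts and medians over members include the former. Members and lists were chosen with earlier results of these data known. Probe places are on mm9 as the files give them; no mm9 annotation was used here, so exons and untranslated regions are not given. Start sites are from RefSeq GRCm38.p6. Alternatives covered scaling, background, filter, probe choice, block, moderation, brightness window and left-out arrays and embryos.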

Additional observations from a re-analysis of the deposited data

How the results depend on the processing

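Medians of the members kept their sign under all alternatives for the comparisons of genotypes. With arrays or embryos left out, the median spanned -0.24 to 0.08 for the difference between tissues and -0.26 to 0.08 for the wild-type tissue comparison. No member was called between genotypes or in the difference between tissues under any alternative. The correlation of an embryo's arrays could not be estimated with 1 embryo of a genotype left, so the value from all 8 arrays was used, and a lone sample was assumed to vary like the others. Calls rested on few embryos. For the wild-type tissue comparison, 1 member was called in the main result. The count was 0 with no filter, no embryo block or the embryo as a fixed term. It was also 0 with the replicate number (slide row) as a block beside the embryo. Between mutant tissues the main result called 0 members. Normexp background, probes well above background on all 8 arrays, the brightest probe per name, and trend and robust moderation each gave 1. For the tissue comparison averaged over genotypes, quantile scaling, normexp, the filter on all 8 arrays, and trend and robust moderation gave 2, Rpl21 among them. No embryo block gave 0. The counts of members called between tissues also changed when single arrays or embryos were left out. The replicate block left the medians at 0.31, 0.36 and -0.13 and changed no other count of called members. With it, members at an unadjusted p under 0.05 went from 4 to 3 in mutant paraxial tissue and 1 to 0 for the difference between tissues. Between tissues they went from 3 to 2 in wild type, 2 to 1 in the mutants and 4 to 3 on average. The shares of all probes under these alternatives are not given here, so the counts do not set members apart from other probes. The 1 alternative chosen after seeing the data, other probes without those described as ribosomal protein, gave an excess of 0.12 and 0.15. In what follows, Rps3 stands for its brightest probe, A_55_P2038237, and not for the intron-spanning probe described above. Signs of named members reversed under quantile scaling in neural tube for Rps3 (-0.16), Rplp0 (-0.03), Rps14 (-0.02), Rpl13a (-0.03) and Rps4x (-0.07), and in paraxial tissue for Rps6 (-0.04), Rps3 (-0.06), Rpl10a (-0.07), Rpl38 (-0.06), Rpl13a (-0.05) and Rps4x (-0.12). Under cyclic loess they did in neural tube for Rps3 (-0.21), Rplp0 (-0.09), Rps14 (-0.05), Rps20 (-0.04), Rpl13a (-0.09) and Rps4x (-0.08), and in paraxial tissue for Rps6 (-0.05), Rps3 (-0.06), Rpl10a (-0.06), Rpl38 (-0.05), Rpl13a (-0.06) and Rps4x (-0.11). With normexp the dim Rpl39 probe gave -0.01 between wild-type tissues and -0.05 on average. With arrays or embryos left out, mutant differences in neural tube spanned -0.14 to 0.25 for Rps3, -0.01 to 0.60 for Rpl10a, -0.03 to 0.31 for Rps4x and -0.06 to 0.76 for Rpl3, and in paraxial tissue -0.61 to 0.14 for Rpl6, -0.03 to 0.46 for Rpl10a, -0.01 to 0.24 for Rps4x and -0.08 to 0.49 for Rpl5. Tissue differences of the Rpl9 probe spanned -0.09 to 1.86 in wild type and -0.20 to 1.78 in the mutants. The causes of these shifts were not tested.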
